A study of Rattus norvegicus with 10 samples.

Results

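The phospholipase A2 family was described in aorta of the inbred rat strains BN and LOU, with RNA levels read from Affymetrix probe sets, groups of short probes placed near the 3′ end of a transcript. The family was taken as 9 genes by their annotated symbol, Pla2g2a, Pla2g12a, Pla2g1b, Pla2g2c, Pla2g4a, Pla2g5, Pla2g6, Pla2g7 and Pla2g10, of which 8 were read by 10 probe sets among the 10411 named genes of the array. Pla2g6 was read by 3 probe sets and the other 7 genes by 1 each, and Pla2g7 was not analysed here. Each strain had 5 arrays of untreated rats labelled as 5 weeks old, while the growth notes allow up to 18 weeks, and the sex of the rats was not used here. The tissue is labelled as abdominal aorta, while the extraction notes also name the thoracic part. Whether 2 arrays share a rat is not stated, so the p-values below measure only the spread between these arrays. The family was chosen by the BN minus LOU differences of Pla2g2a and Pla2g12a on these same arrays. Those differences are therefore given as a description with no test, and only measures apart from them were tested.

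Phospholipases A2 cut the fatty acid from the middle position of a membrane phospholipid. The products are a free fatty acid, often arachidonic acid, from which cyclooxygenases and lipoxygenases make prostaglandins and leukotrienes, and a lysophospholipid. Secreted members such as Pla2g2a act outside the cell and need calcium, the cytosolic member Pla2g4a moves to membranes when calcium rises, and Pla2g6 works without calcium. In arteries, secreted phospholipases A2 are known for their part in inflammation and in the modification of lipoproteins held in the wall.

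All 9 measured smooth muscle markers of 10 listed lay above background on every array, with a summed signal of 42022.1 to 61675.9 in BN and 39649.3 to 54438.6 in LOU. Signals are linear, scaled by the authors to a common mean. The background of an array, taken as the level that 95% of its 45 bacterial control probe sets stay under, ran from 21.2 to 49.2, and 69.7% to 81.9% of probe sets lay above it. BN array 3 stood apart with a mean of Schwann cell and nerve markers of 2.47 (log2, each gene centred over the arrays), against at most 0.38 on any other array. All 10 measured markers of that list of 12 were higher in BN on average, with summed signals of 2999.5 to 13513.3 in BN and 2564.3 to 3814.3 in LOU. One of them, the myelin gene Mbp, passed the test (475 ± 195 in BN, 141 ± 46.5 in LOU, SD, n = 5 each, limma adjusted p = 0.0460), and the part of nerve in the members' differences was not tested. In BN the SD of the nerve markers Dbh (678 ± 1380), Th (609 ± 1118), Nefm (242 ± 442) and Nefl (194 ± 322) was larger than the mean. LOU array 1 stood apart with a lymphocyte marker mean of 1.43 and a macrophage marker mean of 1.07. In these bulk samples fewer cells of a type and less RNA per cell cannot be told apart.

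Pla2g2a, the group IIA secreted enzyme that kills bacteria and is induced by inflammatory cytokines in rat smooth muscle cells, was lower in BN by more than any other member. Its promoter is shown together with that of Pla2g12a, because these are the members with the largest differences between the strains. The sequences are those of RefSeq in build GRCr8, which was assembled from a BN rat, and cover 250 bases before the annotated start and 50 after it. Capitals mark matches on either strand to the NF-kB pattern (GGG, any 5 bases, CC), the box named for its letters CCAAT and the E-box (CACGTG). The TATA box (TATAAA), the GC box (GGGCGG), the AP-1 site (TGANTCA) and the C/EBP site (TTGCNNAA) were also searched.
Pla2g2a, chr5:156359475-156359774, plus strand: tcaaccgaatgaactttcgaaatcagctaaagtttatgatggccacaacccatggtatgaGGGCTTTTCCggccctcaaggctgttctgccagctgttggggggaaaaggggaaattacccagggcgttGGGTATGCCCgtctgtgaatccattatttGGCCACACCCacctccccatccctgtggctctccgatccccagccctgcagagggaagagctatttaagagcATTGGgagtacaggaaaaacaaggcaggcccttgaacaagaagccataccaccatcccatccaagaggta
Pla2g12a, chr2:221110472-221110771, plus strand: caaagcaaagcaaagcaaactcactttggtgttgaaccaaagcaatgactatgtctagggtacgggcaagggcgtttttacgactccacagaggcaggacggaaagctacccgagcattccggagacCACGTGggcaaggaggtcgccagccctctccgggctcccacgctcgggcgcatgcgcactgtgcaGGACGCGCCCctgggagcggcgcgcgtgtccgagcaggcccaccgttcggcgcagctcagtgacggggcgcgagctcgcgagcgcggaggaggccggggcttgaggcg
The Pla2g2a window held 3 matches to the NF-kB pattern, found in 47.3% of 33469 promoters of this length, and 1 to CCAAT, found in 37.5%. The Pla2g12a window held 1 match to the NF-kB pattern and 1 to CACGTG, found in 6.42%. Neither held any of the other 4, which were found in 14.2% (TATA box), 33.1% (GC box), 7.33% (AP-1) and 10.6% (C/EBP) of promoters. The matches overlapped no other match in either window. The Pla2g12a window had a GC content of 65.3% with 32 CG pairs, more pairs than 91.6% of promoters, while Pla2g2a had 52.3% with 6 CG pairs, against a median of 7.

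The signals of Pla2g2a on BN arrays 1 to 5 were 10.4, 25.3, 8.3, 10.2 and 8.3, against 306.6, 849.5, 734.0, 469.1 and 438.9 on LOU arrays 1 to 5. Every BN array lay below its own background and every LOU array above it, so the strains did not overlap. The mean was 12.5 ± 7.23 in BN and 559.6 ± 224 in LOU (SD, n = 5 each), a log2 difference of −5.53 (SE 0.37). Since BN gave no signal above background, LOU was at least 15.6-fold higher than BN, counting each BN array at its background level. The lowest LOU array was 12.1 times the highest BN array. The log2 difference lay between −5.82 and −5.36 when any 1 array was left out. Taking the highest control probe set of each array as its background lowered the bound to 5.54-fold.

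Markers of other cell types were read beside Pla2g2a. The 9 measured adventitial fibroblast markers of 12 listed were all lower in BN on average, with summed signals of 8495.9 to 11050 in BN and 10215.1 to 19271.3 in LOU, and none passed the test. The strains did not overlap in Sfrp2, Pi16 and Dpt, while 2.77% of all probe sets were lower in BN without overlap. Sfrp2 averaged 209 in BN and 511 in LOU, Pi16 389 and 840, and Dpt 1712 and 2951 (limma adjusted p = 0.0958, 0.0730 and 0.112). The strains overlapped in the other fibroblast markers. All 9 were above background on every BN array, where Pla2g2a was not. LOU arrays 2 and 3, with the highest Pla2g2a of LOU, also had the highest fibroblast marker means, 0.81 and 0.57. LOU array 1, with the lowest Pla2g2a of LOU, had the highest macrophage markers. The 10 macrophage markers measured of 14 summed to 992.9 to 1381.6 in BN and 1048.1 to 3101.9 in LOU, and Itgam was above background on no array. Mast cell and granulocyte markers, 10 measured of 12, summed to 721.2 to 1015.9 in BN and 930.8 to 1289.8 in LOU, with Mcpt10, S100a8 and S100a9 above background on no array. Only 2 of these 10 were above background on all arrays, and most of the sum came from Srgn, which averaged 597 in BN and 755 in LOU. The part of these cells in the Pla2g2a difference was not tested.

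Pla2g12a, a secreted phospholipase A2 with a distinct sequence and low enzymatic activity, went the other way. Its signals on BN arrays 1 to 5 were 115.1, 101.4, 94.8, 83.3 and 108.6, against 36.6, 58.0, 25.7, 19.2 and 14.9 on LOU arrays 1 to 5. All BN arrays lay above background, as did LOU arrays 1 and 2, and the strains did not overlap. The mean was 101 ± 12.3 in BN and 30.9 ± 17.2 in LOU (SD, n = 5 each), a log2 difference of 1.86 (SE 0.33) or 3.64-fold. With 3 LOU arrays in the background, the size depended on how dim signals were treated, and it fell to 1.43 (log2) with all signals raised to at least 32 and to 1.38 with a pseudocount of 16. The arrays also differed in evenness, with a coefficient of variation of 12.2% in BN and 55.8% in LOU.

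**Figure D1:**
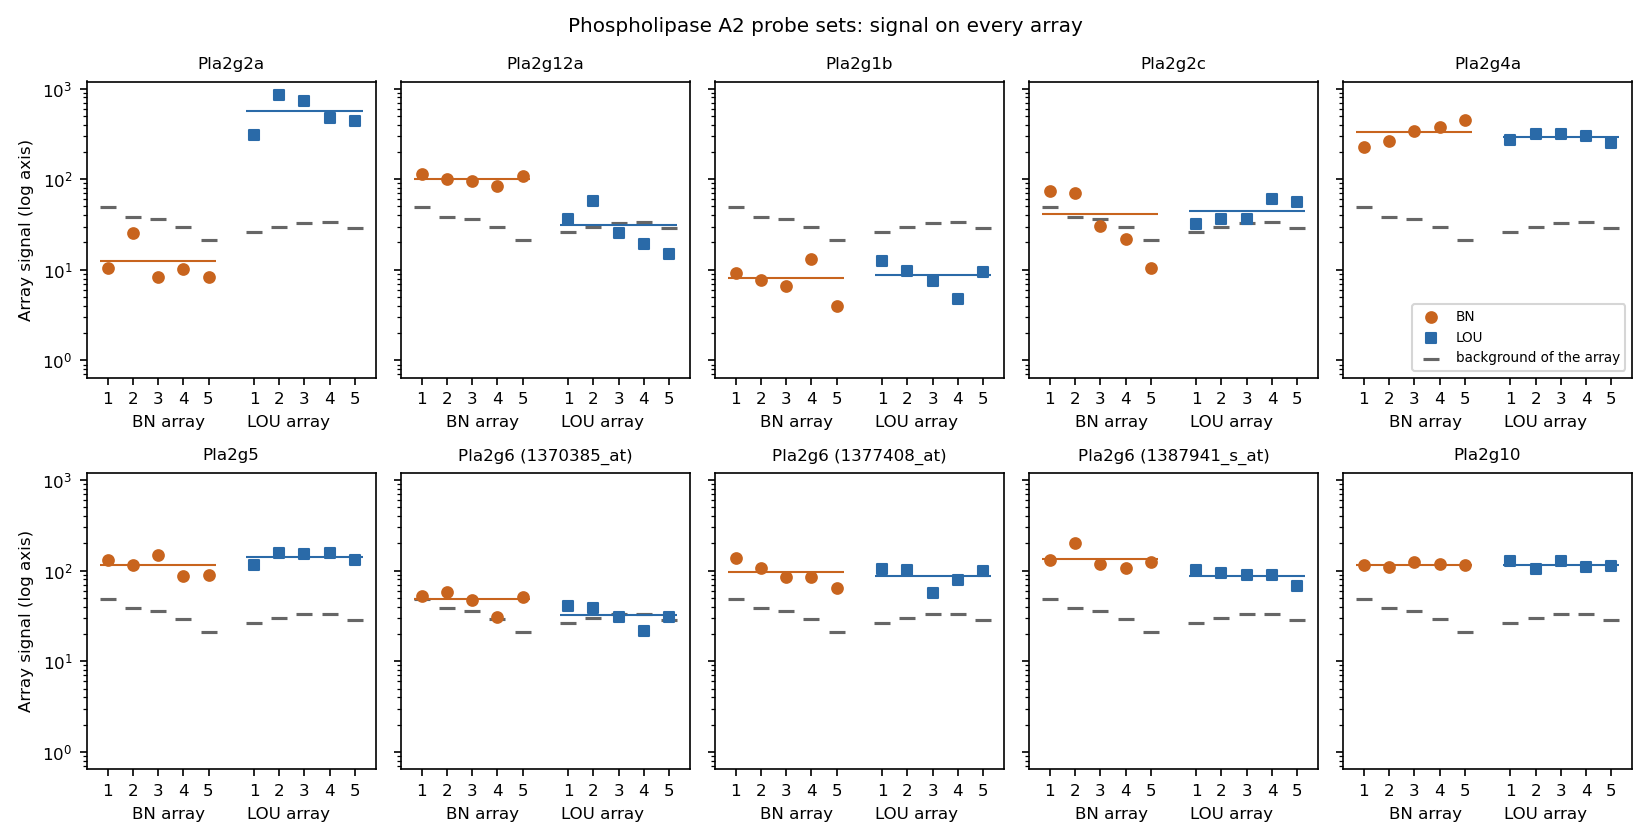
Signal of each phospholipase A2 probe set on the 5 BN arrays (circles) and 5 LOU arrays (squares), on a log axis, with the strain mean as a line and the background of each array as a grey dash. Pla2g2a lies under background on all BN arrays and at 306.6 or more on all LOU arrays, Pla2g12a at 83.3 or more on all BN arrays and at 58.0 or less on all LOU arrays.

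The other secreted members differed less or were too dim to read. Pla2g5, a secreted enzyme of heart and macrophages, had signals of 131.1, 116.8, 150.7, 86.9 and 88.5 on BN arrays 1 to 5, against 115.9, 156.0, 154.4, 158.5 and 130.4 on LOU arrays 1 to 5. The strains overlapped, with BN arrays 4 and 5 below every LOU array, and the log2 difference was −0.34 (SE 0.18, 95% interval −0.75 to 0.07). Pla2g10, a secreted enzyme with strong activity on phosphatidylcholine, had 114.2, 109.9, 123.4, 117.8 and 114.7 in BN, against 126.6, 104.7, 127.7, 108.4 and 111.7 in LOU. Its means were 116 ± 5.00 in BN and 115.8 ± 10.6 in LOU (SD, n = 5 each), and the 95% interval of the log2 difference ran from −0.23 to 0.24. The sign of that difference turned in 4 of 18 other settings. Pla2g10 was also even between arrays, with a within-strain SD of 0.10 on the log2 scale, against a median of 0.26 over the 10001 probe sets above background on all arrays.

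Pla2g2c, a secreted enzyme known from rodent testis, had signals of 74.2, 70.9, 30.5, 21.7 and 10.5 on BN arrays 1 to 5, against 31.8, 36.1, 36.5, 60.3 and 55.3 on LOU arrays 1 to 5. All LOU arrays but only BN arrays 1 and 2 were above background, and the background itself was 49.2, 38.4, 36.0, 29.3 and 21.2 on BN arrays 1 to 5, in the same order as the Pla2g2c signals. The log2 difference of −0.39 (SE 0.51) turned its sign in 2 of 18 settings. Pla2g1b, the digestive phospholipase A2 of the pancreas, lay between 4.0 and 13.2 in BN and between 4.8 and 12.6 in LOU, under background on all 10 arrays, and no difference can be read from it.

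Among the intracellular members, Pla2g6, the calcium-independent enzyme that remodels membrane phospholipids, was read by 3 probe sets, each higher in BN on average. The brightest had signals of 131.8, 200.0, 118.3, 106.1 and 124.2 on BN arrays 1 to 5, against 100.7, 94.3, 89.7, 89.1 and 67.9 on LOU arrays 1 to 5. The strains did not overlap in it, though the lowest BN and the highest LOU array were close, and the log2 difference was 0.60 (SE 0.19). A dimmer probe set gave a log2 difference of 0.58 (SE 0.22), with 31.1 to 58.7 in BN and 21.4 to 40.3 in LOU, and it passed background on only 3 LOU arrays. The remaining probe set lay at 63.8 to 137.8 in BN and 56.4 to 105.1 in LOU and gave a log2 difference of 0.11 (SE 0.24). In LOU it averaged 88.2 and the brightest 88.3, so the brightest was chosen through its BN signals (136, against 95.8 here). After removal of the strain means, that probe set and the brightest correlated with r = 0.25 over the 10 arrays, which share their scaling.

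Pla2g4a, the cytosolic enzyme that prefers arachidonic acid, had signals of 228.5, 264.7, 339.6, 379.8 and 454.0 on BN arrays 1 to 5, against 273.4, 313.4, 315.1, 300.9 and 250.1 on LOU arrays 1 to 5. The LOU range lay inside the BN range, and the log2 difference was 0.16 (SE 0.19, 95% interval −0.26 to 0.58). BN arrays were less alike than LOU arrays, with a coefficient of variation of 27.0% in BN and 9.68% in LOU.

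**Figure D2:**
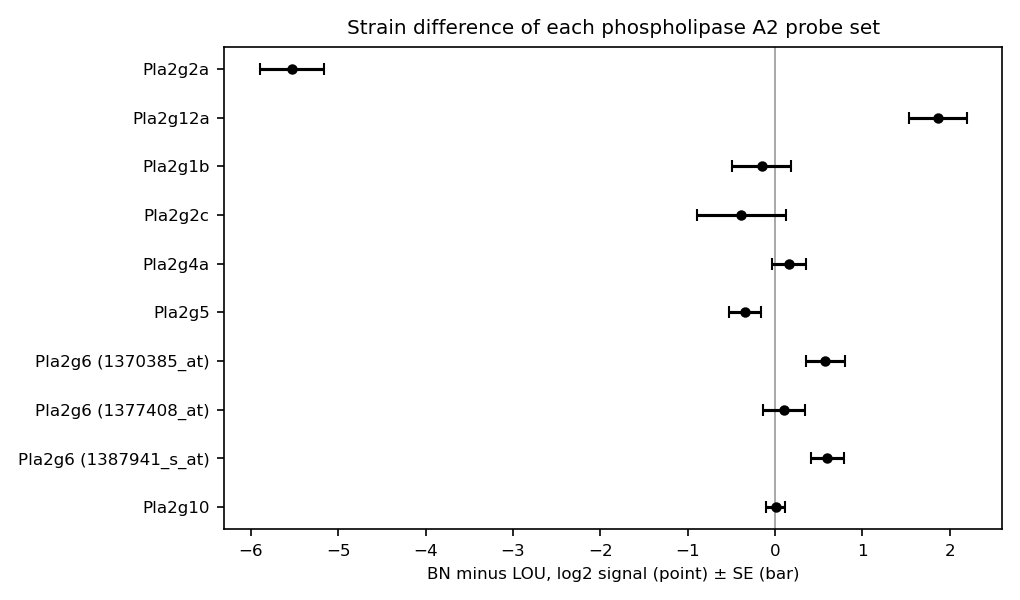
BN minus LOU difference in log2 signal of each phospholipase A2 probe set (point) with its standard error (bar), n = 5 arrays per strain. Pla2g2a at −5.53 and Pla2g12a at 1.86 lie apart from the other 8 probe sets, which run from −0.39 to 0.60.

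Read as a family, 6 of the 10 probe sets were higher and 4 lower in BN, with a median log2 difference of 0.06 (−0.03 over all 15866 probe sets tested). The strains did not overlap in 2 probe sets higher in BN and 1 lower, where 1.41% and 2.77% of all probe sets did the same (4.18% in either direction). At a limma adjusted p of 0.05 over all probe sets, 1 member was among those called higher in BN (0.246% of all) and 1 among those called lower (0.542%), Pla2g12a and Pla2g2a, with 0.788% of all called in either direction. As these values chose the family, nothing is read from the counts. The probe sets called higher in BN numbered 39 in all, and 17 to 21 when BN array 2, BN array 4 or any LOU array but the first was left out.

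Pla2g2a lies in a run of 6 phospholipase genes, in the order Pla2g2c, Pla2g2f, Pla2g2d, Pla2g5, Pla2g2a and Pla2g2e in the RefSeq annotation of GRCr8, and its span falls inside that of Pla2g5, which lies on the other strand. Of these 6 genes 3 were measured, and the positions of the array's probes were not used here. The neighbours give a comparison that did not enter the choice of members. Of the 5 nearest measured genes on each side of Pla2g2a, 8 were not members. None of the 8 passed the limma test (0.720% of all genes passed, adjusted over all probe sets). Nor was any below an unadjusted limma p of 0.05, while 13.2% of all genes were. Camk2n1, Cda and Htr6 were above background on only part of the arrays, which limits what they can show. The log2 differences of the 8 ran from −0.16 (Slc66a1, a lysosomal transporter of basic amino acids) to 0.27 (Nbl1, a secreted BMP antagonist), with a median of 0.05. Pink1, a mitochondrial kinase, averaged 322 ± 62.9 in BN and 340 ± 42.5 in LOU (SD, n = 5 each), with overlapping arrays.

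Of the 10 measured neighbours of Pla2g12a none passed the limma test either, and 1 of 10 was below an unadjusted p of 0.05, as were 13.2% of all genes. That was Elovl6, which lengthens fatty acids in liver and fat, with 567 in BN and 167 in LOU on average and a log2 difference of 1.71 (limma adjusted p = 0.235). The immediate neighbours Cfi, complement factor I, and Casp6, an executioner caspase, differed by 0.17 and 0.23, and each was above background on part of the arrays. The 10 values ran from −0.43 (Egf, the epidermal growth factor, and Lef1, which was above background on no array) to 1.71, with a median of −0.01.

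**Figure D3:**
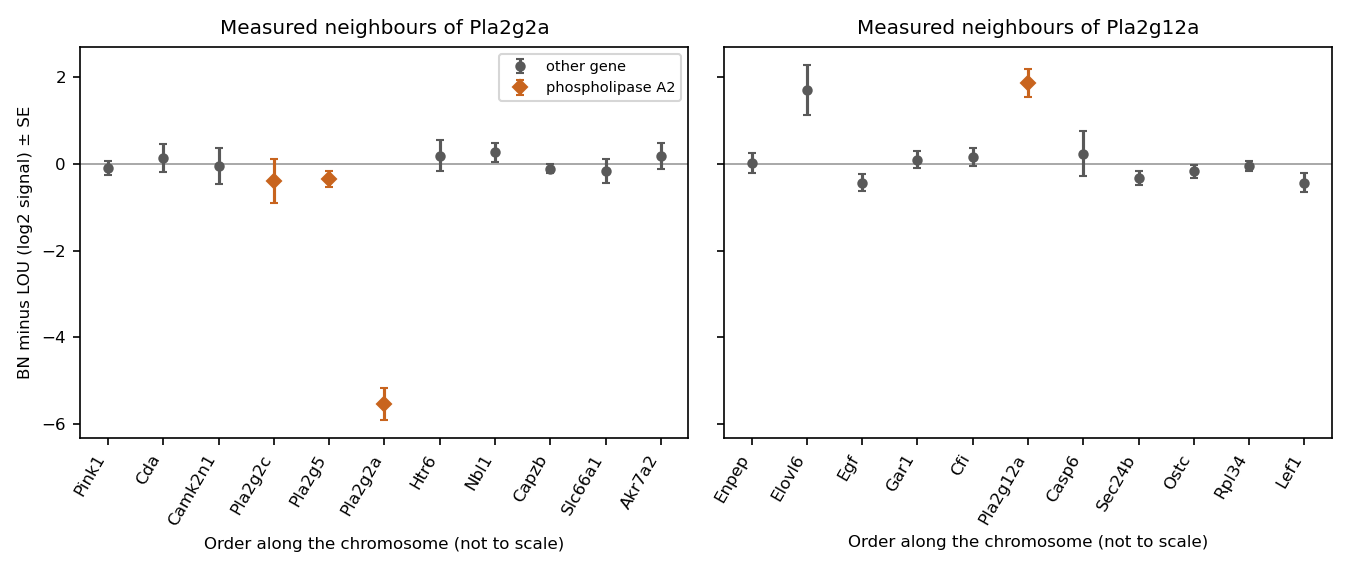
BN minus LOU difference in log2 signal (± SE) of Pla2g2a and Pla2g12a and of the 5 nearest measured genes on each side, in chromosome order and not to scale. Diamonds mark phospholipases A2, and the other neighbours of Pla2g2a lie between −0.16 and 0.27.

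Genes that work with phospholipases A2 were read from 5 lists with 144 entries, of which 115 were measured, and none passed the limma test in either direction, where 0.250% of all genes passed as higher in BN and 0.471% as lower. An unadjusted p below 0.05 was reached by 17 of the 115, a share near that of all genes, of which 13.2% reached it. The values below are therefore differences that did not pass.

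Of relatives, the receptor and regulators of phospholipase A2, 17 of 30 were measured, 10 with a positive difference, and the median was 0.14 (−0.02 over all genes). Pnpla7, a lysophospholipase, had the smallest p, with 214 ± 56.1 in BN and 134 ± 32.4 in LOU (SD, n = 5 each, limma adjusted p = 0.244). Annexin A1 (Anxa1), a protein known to restrain phospholipase A2, was 2604 ± 681 in BN and 2690 ± 325 in LOU (log2 −0.07). Pla2g15, the lysosomal phospholipase A2, was 214 ± 19.5 in BN and 255 ± 47.0 in LOU (log2 −0.24, limma adjusted p = 0.528). The phospholipase activator Plaa differed by 0.26 and Pafah1b2, a catalytic subunit of an acetylhydrolase of platelet-activating factor, by 0.28, neither past the test (limma adjusted p = 0.402 and 0.460), and a dimmer probe set of Plaa gave −0.35.

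Enzymes that put fatty acids back into phospholipids or act on lysophospholipids had a median of 0.24, with 17 of 22 measured members of 26 positive. Plpp2, a phosphatase of lipid phosphates, had signals of 119.3, 130.9, 111.5, 87.1 and 106.8 on BN arrays 1 to 5, against 66.8, 41.2, 52.0, 58.3 and 75.6 on LOU arrays 1 to 5. The strains did not overlap, and the log2 difference of 0.94 (SE 0.18) gave a limma adjusted p of 0.0522. Over 20 other settings its adjusted p ran from 0.0145 to 0.223, and it passed in 7. Agpat3, an acyltransferase of phospholipid synthesis, differed by 0.89 (179 ± 82.5 in BN, 89.2 ± 17.1 in LOU, adjusted p = 0.271), Lypla2, a lysophospholipase, by 0.34 (adjusted p = 0.337), and Plpp3, a relative of Plpp2, by −0.40 (adjusted p = 0.410, limma for these 3). Agpat3 followed the adipocyte marker means of the BN arrays in order, with BN array 2 highest and BN array 5 lowest in both. It did not follow them in order in LOU. There Agpat3 was highest on array 2 (108) and lowest on array 3 (67.2), the marker mean highest on array 1 (0.91) and lowest on array 4 (−1.36). Of the 11 measured adipocyte markers of 15 listed, 9 were higher in BN on average and none passed the test. Their summed signals were 7276.6 to 41165.1 in BN and 7367.8 to 35632.4 in LOU, with Lep above background on no array, and the part of fat in the differences of these enzymes was not tested.

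Among enzymes that make or break down eicosanoids, 32 of 35 were measured, 20 with a positive difference, and the median was 0.06. Ptgr1, which inactivates leukotriene B4 and prostaglandins, had signals of 205.9, 293.3, 176.7, 228.4 and 91.2 on BN arrays 1 to 5, against 74.7, 44.5, 68.5, 24.6 and 21.6 on LOU arrays 1 to 5. The strains did not overlap, and the limma adjusted p over all probe sets was 0.0518, with a range of 0.0127 to 0.119 over 20 settings and 10 of them past the threshold. Ptgs1, the constitutive cyclooxygenase, averaged 844 ± 285 in BN and 391 ± 71.7 in LOU (SD, n = 5 each, limma adjusted p = 0.0751, past the threshold in 3 of 20 settings). Ltc4s, which makes leukotriene C4, averaged 162 ± 20.8 in BN and 101 ± 16.1 in LOU (limma adjusted p = 0.0746, past it in 4). Akr1b1, an aldose reductase, averaged 851 ± 150 in BN and 1246 ± 187 in LOU (limma adjusted p = 0.166). The strains did not overlap in any of these 4 enzymes, which were named for their small p. They were 3 higher and 1 lower in BN of 32, where 1.41% and 2.77% of all probe sets did the same. The lowest value of the list was that of Ptgs2, the inducible cyclooxygenase, at −2.01 (limma adjusted p = 0.366). Its signals were 685.3, 334.9, 38.8, 49.3 and 34.1 on BN arrays 1 to 5, against 283.6, 177.3, 780.5, 805.2 and 506.6 on LOU arrays 1 to 5. The strains overlapped, since BN arrays 1 and 2 lay within the LOU range and the other 3 far below it.

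Receptors of lipid mediators had a median of −0.29, with 11 of 18 measured members of 25 negative and 8 above background on all arrays. The thromboxane receptor Tbxa2r was 160 ± 35.8 in BN and 212 ± 50.7 in LOU (SD, n = 5 each, limma adjusted p = 0.442). The prostaglandin E receptor Ptger1 was 62.7 ± 14.6 in BN and 47.6 ± 3.30 in LOU (limma adjusted p = 0.393), the sphingosine phosphate receptor S1pr3 differed by 0.36, and Ptger4 was above background on no array.

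Cytokines, their receptors and the factors known to control secreted phospholipases A2 had a median of −0.17, with 15 of 26 measured members of 28 negative. Nr3c1, the glucocorticoid receptor, through which steroids lower Pla2g2a in rat cells, had signals of 199.6, 182.7, 159.5, 190.2 and 192.6 on BN arrays 1 to 5, against 285.9, 364.4, 256.9, 236.7 and 316.1 on LOU arrays 1 to 5. The strains did not overlap in this probe set (log2 −0.65, limma adjusted p = 0.0799, 0.0291 to 0.798 over 20 settings), and a dimmer probe set of Nr3c1 gave 0.17. Stat3, Nfkb1 and Nfkb2, which carry cytokine signals to the nucleus, differed by −0.45, −0.33 and −0.30 (limma adjusted p = 0.252, 0.358 and 0.364). The cytokine gene Il6 was above background on no array, and Il1b was above it on 1 BN array and 4 LOU arrays.

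**Figure D4:**
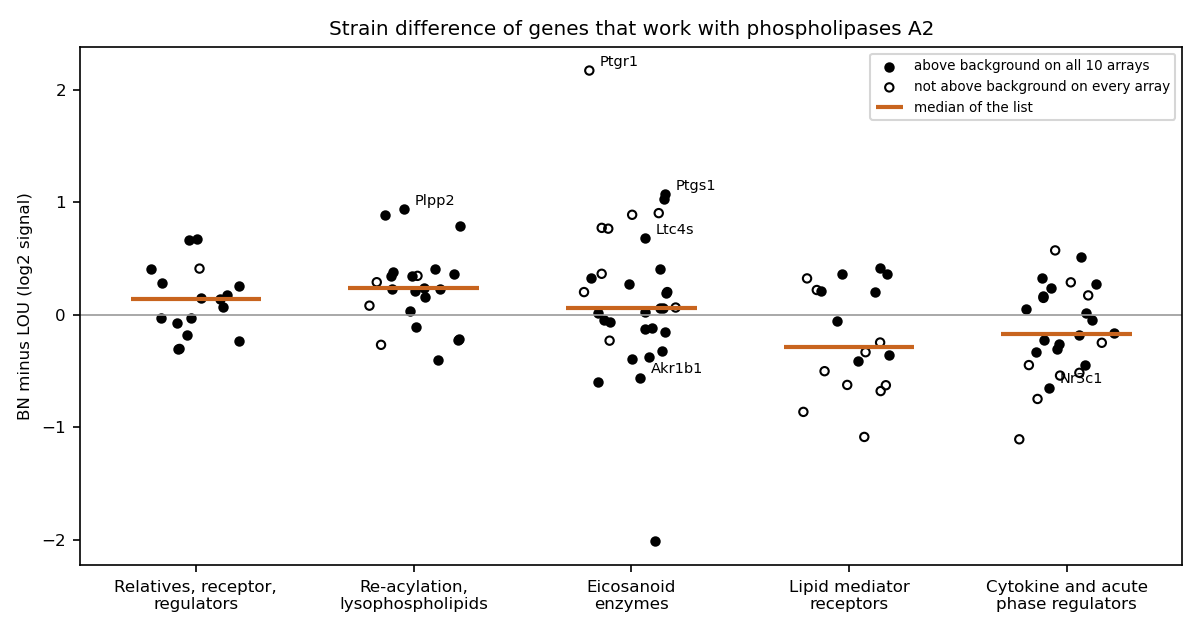
BN minus LOU difference in log2 signal of each measured gene in 5 lists of genes that work with phospholipases A2, with list medians as bars and open circles for genes not above background on every array. The medians run from −0.29 for lipid mediator receptors to 0.24 for re-acylation and lysophospholipid enzymes, and no gene passed the test.

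The spread of the members between arrays of 1 strain was not used to choose them and could be tested. Pla2g4a, Pla2g5, Pla2g6 and Pla2g10, read from their brightest probe set, were above background on all 10 arrays. They were set against the means of 8 cell marker lists after removal of strain means, by exact permutation of arrays within strains, two-sided. None of the 32 relations passed after adjustment, and 3 had an unadjusted p of Pearson's r below 0.05. Pla2g4a ran against adipocyte markers (Pearson r = −0.65, exact permutation p = 0.0444, adjusted 0.473, Spearman rho = −0.71, p = 0.0350, adjusted 0.544). Without the 2 arrays farthest from the median of the marker mean r was −0.46. BN array 5, with the highest Pla2g4a, had the lowest adipocyte mean of BN, −1.08.

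Pla2g5 ran against lymphocyte markers (Pearson r = −0.57, exact permutation p = 0.00368, adjusted 0.118, Spearman rho = −0.61, p = 0.00771, adjusted 0.247, r = −0.59 without the 2 farthest arrays). Without BN array 3 this relation passed, with r = −0.68 and an adjusted exact permutation p of 0.0333, while its Spearman rho of −0.67 did not (adjusted exact permutation p = 0.411). Of the 10 lymphocyte markers measured of 12 listed, only 2 were above background on all arrays, so dim signals enter the marker mean. Pla2g10 ran against endothelial markers (Pearson r = −0.67, exact permutation p = 0.00736, adjusted 0.118, Spearman rho = −0.64, p = 0.0510, adjusted 0.544, r = −0.52 without the 2 farthest arrays), over a range of signals from 104.7 to 127.7.

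Pla2g4a and Ptgs1, which act one after the other on the way to prostaglandins, ran together between arrays. On BN arrays 1 to 5 Ptgs1 was 597.3, 626.5, 743.2, 970.8 and 1281, in the same order as Pla2g4a, and on LOU arrays 1 to 5 it was 296.5, 477.7, 395.7, 437.3 and 346.7. The background of BN arrays 1 to 5 fell in that same order, and the share of probe sets above it was 69.7%, 73.0%, 76.3%, 79.0% and 81.9%. In LOU the direction was the opposite, since the 2 arrays with the lowest background, 1 and 5, had the lowest signals of both genes. In BN the array with the lowest background, array 5, had the highest signals of both. The part of array background in the relation was not tested. The strain-centred correlation was r = 0.90 (exact permutation p = 0.00285, Spearman rho = 0.88, p = 0.00639, r = 0.81 without the 2 farthest arrays). It was one of 128 relations of these 4 members with the 32 eicosanoid enzymes, computed after the Pla2g4a and Ptgs1 values had been seen, and did not pass after adjustment over them (adjusted p = 0.182 and 0.409). The other cyclooxygenase, Ptgs2, ran against Pla2g4a (r = −0.80), while Lta4h of the leukotriene branch ran with it (r = 0.89). Neither passed (exact permutation adjusted p = 0.667 and 0.207). Of 10403 genes, 32 had a higher strain-centred r with Pla2g4a than Ptgs1 had. Ptgs1, like Pla2g4a, ran against the adipocyte marker mean (r = −0.72, with no test), and the part of fat in their relation was not tested. The 1 relation of 128 that passed joined Pla2g10 with Cyp2j4, a cytochrome P450 (r = −0.85, exact permutation adjusted p = 0.0444, Spearman rho = −0.94, adjusted p = 0.0267, r = −0.82 without the 2 farthest arrays). No relation passed when any 1 array was left out. In those fits a relation could pass alone only as the most extreme of 2880 permutations, so they cannot judge this relation.

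**Figure D5:**
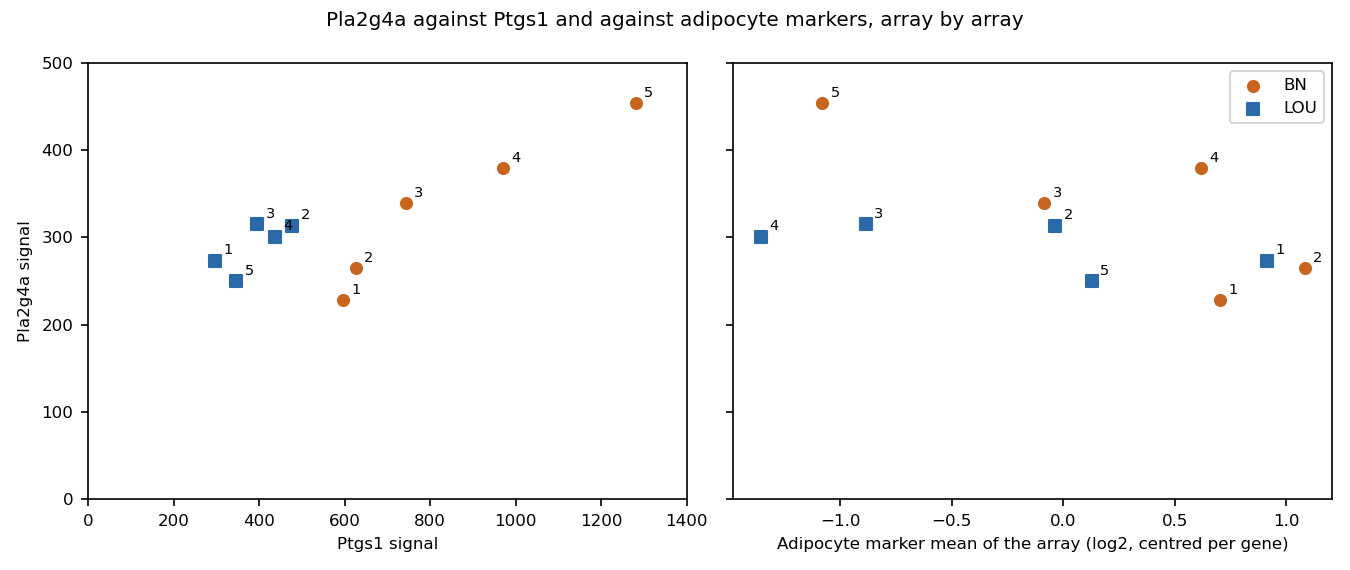
Pla2g4a signal of each array against its Ptgs1 signal (left) and against the mean of its adipocyte markers (right), for 5 BN arrays (circles) and 5 LOU arrays (squares), numbered by array. BN array 5 has the highest Pla2g4a (454.0) and Ptgs1 (1281) and the lowest adipocyte mean of BN (−1.08).

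The genes most like Pla2g2a in log2 signal over the 10 arrays were Crym (r = 0.97), Tgoln2 (0.96) and RT1-T24-4 (0.96), and those most like Pla2g12a were Dpm2 (0.98), Fam171a1 (0.95) and Ctsf (0.91). These likenesses are descriptions over 10 arrays that fall into 2 strains and mostly restate the strain difference. Crym, a thyroid hormone binding protein, was 68.2 ± 8.38 in BN and 205 ± 31.9 in LOU, and Dpm2, a subunit of an enzyme that supplies mannose for glycans, was 124 ± 6.11 in BN and 72.6 ± 13.4 in LOU. After removal of strain means the genes most like Pla2g4a were Mpdz (0.95), Abtb2 (0.95) and Rictor (0.95), and those most like Pla2g5 were Mllt1 (0.92), Hs1bp3 (0.90) and Glud1 (0.90). For Pla2g6 they were Ceacam12 (0.91) and Exosc5 (0.91), both above background on no array, and Ifitm2 (0.90), and for Pla2g10 they were Septin1 (0.93), Cd52 (0.91) and Smyd2 (0.90), the first of which was above background on 1 array of each strain and Cd52 on 1 LOU array.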

How the data were processed

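The deposited array intensity values are linear, 1 signal per probe set, from 0 to 22219.9, and no signal is below 0. The submitters' processing notes name RMA, but the values are linear and scaled by the authors to a trimmed mean of about 200.0 on every array, as read from the values, and the tools and build behind them are otherwise not given in the sources used here. Log2(signal) was taken with the 4 values of 0 set to 0.1. Strain came from the array titles. Symbols came from the platform annotation, updated through gene identifiers in the RefSeq table of GRCr8 (12748) or accessions (2), with 33 kept as listed. Of 15866 probe sets without 57 controls, 12783 had 1 symbol, 312 several and 2771 none, and only the first were named. BN minus LOU was fitted with limma 3.58.1 in R 4.3.3 on all 10 arrays with strain as the only term, two-sided, with Benjamini-Hochberg adjustment over the 15866 probe sets and a threshold of 0.05. A gene was read from its brightest probe set. The number of arrays limits the precision, and arrays give no counts.

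Members, gene lists and tests were chosen with earlier results of these data known. Genes named by rule are all members, list genes past the test plus 4 more per list in order of adjusted p, neighbours past the test, and the 3 genes most like a member. Anxa1, Ptgs2, Mbp, Il6, Il1b, Cyp2j4, the neighbouring genes, of which none passed, and single cell markers were named after their values were seen. On simulated arrays (15866 probe sets, 200 changed, 5 against 5) log2 changes of size 1, 2, 3 and 4 were found by limma in 48.8%, 80.8%, 91.6% and 96.0% of cases, and 5.07% of calls were false. The simulated noise was independent between probe sets. The real arrays hold shared shifts, such as those of cell markers, so these rates need not hold for them. Relations used exact permutation within strains. Alternatives were other scalings, a floor of 32, a pseudocount of 16, array weights, a trend of the variance with signal, a block for replicate number, removal of the dimmest 40% of probe sets, gene means over probe sets, other background levels, each array left out, and a fit lacking both BN array 3 and LOU array 1. Python 3.11.15 drew the plots and read the promoters.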

Additional observations from a re-analysis of the deposited data

Results flagged for a closer look

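Of 60 sets of 5 signals, the 2 strains of each member probe set and of the list genes with the smallest p, 5 held an array whose gap to its nearest neighbour took up more of the range than Dixon's 95% critical value allows, where chance flags about 1 in 20. BN array 2 was the array in 4 of them. Its Pla2g2a signal was 25.3, against 10.4 as the next highest in BN, and it was below background all the same. Its signal in the brightest Pla2g6 probe set was 200, with 131.8 as the next highest in BN, and its Ltc4s signal was 198.3, with 157.7 next. Its Stat3 signal was 183.9, with 241.8 as the next lowest in BN. LOU array 2 had a Plpp3 signal of 649.3, with 425 as the next highest in LOU.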

How the results depend on the processing

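Pla2g2a, Pla2g12a, Pla2g6, Pla2g5 and Pla2g4a kept the sign of their difference in all 18 settings that gave one, and for the dim or even members Pla2g1b, Pla2g2c and Pla2g10 it turned in 2, 2 and 4. The Pla2g2a difference was −4.03 with a floor of 32 and −4.28 with a pseudocount of 16, which raise its BN signals by construction, and its bound was 5.54-fold with the highest control as background. With the median control every BN signal of Pla2g2a lay above background, so no bound could be given. With the highest control, 1 and 2 member probe sets were above background on all BN and all LOU arrays, in place of 7 and 7, and 3 were above it on no LOU array, in place of 1. With the median control 0 were above it on no array of either strain, in place of 2 for BN and 1 for LOU.

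Over all probe sets, 39 higher and 86 lower in BN became 60 and 126 with the floor, 60 and 144 with the pseudocount, 81 and 161 with a variance trend, 78 and 175 without dim probe sets. With BN array 3 and LOU array 1 both left out they were 16 and 59. Leaving out 1 array gave 17 to 36 higher and 45 to 91 lower, with at most 57 lower without BN array 2 or LOU array 2, 3, 4 or 5. Of the list genes, where none passed, 2 were called higher with median centring, 2 with quantile normalization, 3 with the floor, 4 with the pseudocount, 4 with a variance trend, 4 without dim probe sets, 1 with array weights and 2 with gene means. The floor, the pseudocount, the trend and the removal of dim probe sets each also called 1 lower, Nr3c1. Leaving out 1 array gave 0 to 1 higher, Ptgr1 without BN array 5 or LOU array 1, and 0 lower. It gave 0 to 1 of the relations with marker lists and 0 of those with eicosanoid enzymes. With 1 array out, a relation with eicosanoid enzymes could pass alone only as the most extreme permutation. These relations also numbered 0 without BN array 3 and LOU array 1, where the permutations were too few for any to pass alone. No neighbouring gene passed in any setting run. The cause of these changes was not tested.

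A replicate block in the fit left 10 probe sets higher and 13 lower. Same-numbered BN and LOU arrays correlated in their deviations with r between −0.06 and 0.17, and only number 1 correlated best with its own. These values cannot exclude a pairing by number, since the deviations also hold shifts of single arrays, such as those of cell markers. Signals near background limit Pla2g1b, Pla2g2c, the BN level of Pla2g2a and the LOU level of Pla2g12a.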
